A study of Mus musculus with 9 samples.

Results

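Tnfrsf12a, Anxa2 and Sprr1a are 3 genes known for their induction in injured and regenerating tissue, and their transcript levels are described here in the livers of mice under 2 kinds of dietary restriction. They were chosen by gene symbol, as 3 of the 5608 genes in the table, with their levels in these samples already known. Their own levels are therefore a description, and no test is given for them. Liver mRNA of 9 wild-type C57BL/6 J mice was sequenced, 3 mice per group. The FED group had standard diet freely available. In the IF group (intermittent fasting) food was withheld for 24 h, 2 times a week, with free feeding in between. The FMD group received a fasting-mimicking diet for 3 days, a low-calorie diet poorer in protein and richer in fat than the standard diet. All mice were wild type, none received a drug or transgene, and their age and sex are not given in the sources used here. The replicates are separate mice, numbered 1 to 3 in the FED and IF groups, and in the FMD group 1, 2 and 4.

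Tnfrsf12a encodes Fn14, the small cell-surface receptor of the cytokine TWEAK (Tnfsf12). It is scarce in healthy liver and is known as an immediate response gene of hepatocytes and progenitor cells after injury or partial hepatectomy, where it signals through TRAF adaptors to NF-kB. Anxa2 encodes annexin A2, a calcium-dependent membrane-binding protein that pairs with S100A10, binds plasminogen and takes part in membrane repair and exocytosis. It is low in resting hepatocytes and higher in biliary, endothelial and stromal cells. Sprr1a encodes a small proline-rich protein first known from the cornified envelope of skin, and it is a classic marker of axon regeneration and of stressed heart muscle. Transcription factors of the AP-1 family, such as FOS-related proteins and JUN, are known regulators of SPRR genes.

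Levels are given in TPM, a unit that the authors normalized for transcript length and library size. Across the table, values tended to be higher under the diets. Over the 4665 genes tested, the median log2 fold change was 0.24 in IF relative to FED, 0.48 in FMD relative to FED and 0.24 in FMD relative to IF. Scaled values take out this shift, by dividing every library by a median-ratio size factor, and are given beside the main ones where they matter. The p-values given for other genes measure the spread between these mice only. FMD replicate 1 stood apart from the other libraries. Its distance on log2(TPM + 1) was 34.8 to FMD replicate 2 and 42.0 to FMD replicate 4, which lay 25.2 from each other, against a mean of 15.5 between FED and 15.0 between IF libraries. The levels, differences, ranks and profiles of the 3 genes are therefore also given without it. In bulk liver RNA, more cells of a type and more RNA per cell cannot be told apart.

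Tnfrsf12a (NCBI gene 27279) was lowest in FED, intermediate in IF and highest in FMD livers, with no overlap between groups. It was at 10.54, 8.11 and 9.50 TPM in the FED livers, at 15.69, 16.89 and 15.63 TPM in the IF livers, and at 216.94, 49.21 and 33.88 TPM in FMD replicates 1, 2 and 4. Every IF library lay above every FED library, and every FMD library lay above every IF library. The means were 9.38 ± 1.22 TPM in FED, 16.1 ± 0.71 TPM in IF and 100 ± 102 TPM in FMD livers (SD, n = 3 each). The difference on log2(TPM + 1), with the standard error from the spread within both groups, was 0.72 (standard error 0.10) between IF and FED, 2.81 (standard error 0.81) between FMD and FED, and 2.09 (standard error 0.81) between FMD and IF. After scaling these were 0.47, 2.28 and 1.81. Such a separation was common. All IF values exceeded all FED values at 53.8% of the genes tested, and the opposite held at 6.77%. For FMD against FED these shares were 68% and 2.62%, and for FMD against IF they were 33.6% and 3.04%. In size, Tnfrsf12a had the 14th largest of 4665 differences in FMD vs FED, the 3rd largest in FMD vs IF and the 293rd in IF vs FED. Mean TPM in FMD was 10.7 times that in FED and 6.22 times that in IF. Without FMD replicate 1 these ratios were 4.43 and 2.59, and the log2 differences were 2.02 and 1.29, ranking 30th and 16th.

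Anxa2 (NCBI gene 12306) had overlapping FED and IF values, unlike Tnfrsf12a, although scaling parted these groups. It was at 6.59, 8.48 and 8.96 TPM in the FED livers, at 6.68, 6.62 and 7.62 TPM in the IF livers, and at 156.37, 20.41 and 8.85 TPM in FMD replicates 1, 2 and 4. In these values the IF libraries lay inside the FED range, and so did FMD replicate 4, while FMD replicates 1 and 2 lay above every other library. All FMD values of Anxa2 exceeded all IF values. In scaled TPM the IF livers were at 6.49, 6.50 and 7.92 and FMD replicate 4 at 8.14, all below the FED values of 8.16, 10.3 and 10.6. The means were 8.01 ± 1.25 TPM in FED, 6.97 ± 0.56 TPM in IF and 61.9 ± 82.0 TPM in FMD livers (SD, n = 3 each). On log2(TPM + 1), IF differed from FED by -0.17 (standard error 0.13), FMD from FED by 1.84 (standard error 1.2) and FMD from IF by 2.01 (standard error 1.19). These were the 60th largest of the FMD vs FED and the 4th largest of the FMD vs IF differences among 4665 genes. Without FMD replicate 1 the FMD differences were 0.70 from FED and 0.87 from IF, ranking 695th and 52nd, and with scaling added they were 0.30 and 0.72. Scaling alone gave -0.42, 1.32 and 1.74 in the order above.

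Sprr1a (NCBI gene 20753) was listed at 0 TPM in all FED and all IF livers, and at 17.67, 1.65 and 0.13 TPM in FMD replicates 1, 2 and 4. The FMD mean was 6.48 ± 9.72 TPM (SD, n = 3), and on log2(TPM + 1) it was 1.93, or 0.79 without FMD replicate 1. No fold change is given against groups listed at 0. Sprr1a reached the mean of 1 TPM required for testing only through FMD replicate 1. In the whole table, 22 genes were listed at 0 in the 6 FED and IF livers and above 0 in at least 1 FMD liver. Of these, 3 were above 0 in all FMD livers, namely Sprr1a, Fosl1 and Eef1akmt3. Whether reads of close SPRR paralogs were counted with Sprr1a was not tested. The order of the 3 genes by level was the same in every FMD library, with Tnfrsf12a above Anxa2 and Anxa2 above Sprr1a. In FED replicate 2 Anxa2 was above Tnfrsf12a, and the FED values of both genes overlapped.

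**Figure D1:**
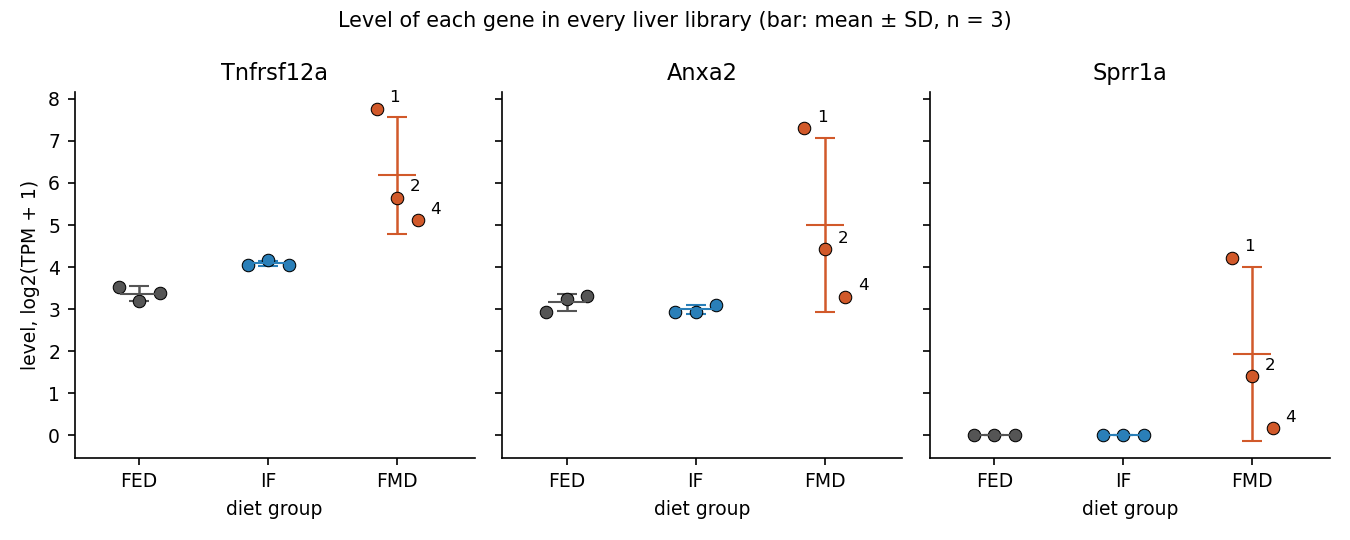
Level of Tnfrsf12a, Anxa2 and Sprr1a in each of the 9 liver libraries, on log2(TPM + 1). Points are libraries, bars are the mean ± SD of 3 libraries and the numbers beside FMD points are replicate labels. FMD replicate 1 is the highest library for all 3 genes, and FMD replicate 4 lies within the FED range for Anxa2 only, in these unscaled values.

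The 3 genes varied together among the FMD livers. Each was highest in FMD replicate 1, lower in replicate 2 and lowest in replicate 4. The fold between replicates 1 and 4 was 6.40 for Tnfrsf12a, 17.7 for Anxa2 and 136 for Sprr1a, and it was 4.82, 13.3 and 102 in scaled TPM. Between replicates 2 and 4 it was 1.45, 2.31 and 12.7. The ratio of Tnfrsf12a to Anxa2 was 1.39 in FMD replicate 1, 2.41 in replicate 2 and 3.83 in replicate 4, while it ranged from 0.956 to 1.60 in FED livers and from 2.05 to 2.55 in IF livers. The ordering of replicates 1, 2 and 4 was shared by 43.2% of the genes tested, or by 18.9% after scaling. On log2(TPM + 1), FMD replicate 1 exceeded the mean of the other FMD livers by 3.44 for Anxa2, 3.43 for Sprr1a and 2.38 for Tnfrsf12a, against a median of 0.30 over the genes tested. The gaps of Anxa2 and Tnfrsf12a were the 2nd and 23rd largest of 4665, and 35 genes (0.75%) reached a gap of 2. Sprr1a is among these genes only through its level in FMD replicate 1, so the filter itself fixes a large gap and nothing is read from its rank. The same holds for Fosl1 and Psat1.

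**Figure D2:**
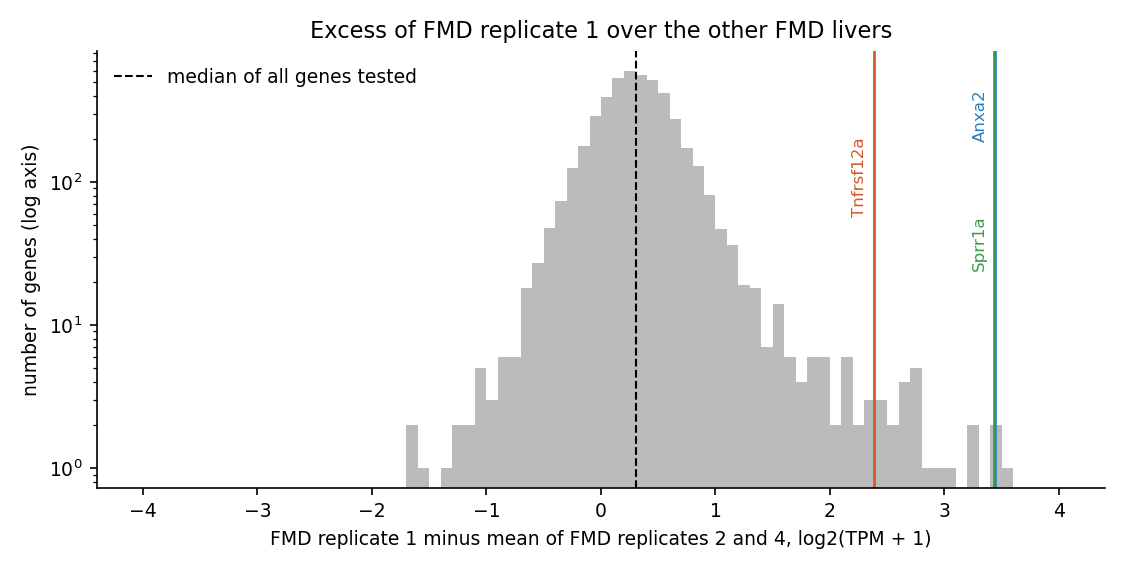
Histogram of the level in FMD replicate 1 minus the mean of FMD replicates 2 and 4, on log2(TPM + 1), over the 4665 genes tested, with the number of genes on a log axis. Coloured lines mark the 3 genes at 2.38, 3.43 and 3.44, and the dashed line marks the median of 0.30.

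Of the other genes with a gap of at least 2 in FMD replicate 1, the following were chosen after their values were seen. The stress-induced transcription factor gene Ddit3 (CHOP) was at 121, 11.82 and 12.07 TPM in FMD replicates 1, 2 and 4, the serine synthesis enzyme Psat1 at 24.83, 1.3 and 1.08 TPM and asparagine synthetase Asns at 17.33, 3.28 and 1.78 TPM. The stress-inducible kinase-like gene Trib3 was at 83.77, 17.27 and 15.19 TPM, and the mitochondrial folate enzyme Mthfd2 at 13.49, 1.38 and 0.95 TPM. The cell cycle inhibitor Cdkn1a was at 184.15, 49.10 and 8.68 TPM, and the metallothionein Mt2 at 427.18, 90.69 and 20.93 TPM. Mean FED and IF levels were 8.22 and 7.55 TPM for Ddit3, 0.27 and 0.29 TPM for Psat1 and 7.51 and 2.41 TPM for Asns. They were 5.15 and 8.65 TPM for Trib3, 1.56 and 0.42 TPM for Mthfd2, 1.84 and 14.6 TPM for Cdkn1a and 4.47 and 175 TPM for Mt2. Asns and Mthfd2 were thus higher on average in FED, and Mt2 and Cdkn1a in IF, than in FMD replicate 4. All the genes listed above were highest, of all 9 livers, in the one that was highest for Tnfrsf12a, Anxa2 and Sprr1a. This follows largely from their choice by a large gap in that liver. It did not hold for every gene with such a gap, as Orm2 was at 23.93 TPM in FMD replicate 1 against a mean of 38.8 TPM in FED livers.

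Markers of other liver cell types were scarce in the table. For hepatocytes 1 of 10 markers was listed, the urea cycle enzyme Ass1, whose level ranged from 2965 to 3658 TPM in FED livers, 2574 to 4865 TPM in IF livers and 2335 to 5153 TPM in FMD livers, with 3861 TPM in FMD replicate 1. Macrophages were represented by 1 of 12 markers, Cd68, at 6.35 to 10.35 TPM in FED livers, 3.14 to 5.99 TPM in IF livers and 5.75 to 64.02 TPM in FMD livers. Its highest value was in FMD replicate 1, and it ranked 9th for the gap of that library over the other FMD livers. For stellate cells and fibroblasts 3 of 11 markers were listed (Dcn, Pdgfrb and Col1a1), and their summed level was 66.6 to 93.8 TPM in FED livers, 122 to 160 TPM in IF livers and 216.8, 134 and 107 TPM in FMD replicates 1, 2 and 4. Nearly all of this sum was Dcn, with means of 77.5, 141 and 150 TPM in FED, IF and FMD livers. The other markers did not follow it, with means of 1.67, 1.96 and 1.63 TPM for Pdgfrb and 1.15, 0.94 and 0.91 TPM for Col1a1. The endothelial marker Oit3, 1 of 10, was at 6.58 to 9.28 TPM in FED livers, 6.35 to 8.02 TPM in IF livers and 8.85 to 17.17 TPM in FMD livers. The biliary keratin Krt19, 1 of 10, was at 0.76 to 1.78, 1.02 to 2.06 and 1.22 to 4.07 TPM, with its highest value in FMD replicate 2 and 1.26 TPM in FMD replicate 1. Krt10, 1 of 9 markers of keratinocytes and gallbladder epithelium, was at 0.74 to 0.84, 0.82 to 0.99 and 0.95 to 1.4 TPM. No listed marker was at 0 in any library, and 0 of 7 neutrophil and 0 of 9 lymphocyte markers were listed. The part of other cell types in the levels of Tnfrsf12a, Anxa2 and Sprr1a was not tested.

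The upstream sequences of the 3 genes are shown because Anxa2 and Sprr1a share motifs there that Tnfrsf12a lacks. Each is the 250 bases before the transcription start in RefSeq, on build GRCm38.p6, 5′ to 3′ on the gene's own strand, which is not the build mm39 named for the deposited values. They lie at chr17:23677450-23677699 (minus strand) for Tnfrsf12a, chr9:69453433-69453682 (plus strand) for Anxa2 and chr3:92485882-92486131 (minus strand) for Sprr1a. Capitals mark matches to the AP-1 motif, spelled TGANTCA, or to the TATA motif, which is spelled TATAAA.
Tnfrsf12a: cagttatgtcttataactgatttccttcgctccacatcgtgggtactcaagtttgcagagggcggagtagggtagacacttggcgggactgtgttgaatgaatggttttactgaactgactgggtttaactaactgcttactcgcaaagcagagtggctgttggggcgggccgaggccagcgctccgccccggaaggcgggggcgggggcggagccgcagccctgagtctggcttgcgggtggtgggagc
Anxa2: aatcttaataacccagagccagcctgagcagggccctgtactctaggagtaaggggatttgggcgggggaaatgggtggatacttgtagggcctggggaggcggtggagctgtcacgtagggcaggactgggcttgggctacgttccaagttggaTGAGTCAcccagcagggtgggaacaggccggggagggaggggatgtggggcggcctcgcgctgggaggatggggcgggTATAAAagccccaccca
Sprr1a: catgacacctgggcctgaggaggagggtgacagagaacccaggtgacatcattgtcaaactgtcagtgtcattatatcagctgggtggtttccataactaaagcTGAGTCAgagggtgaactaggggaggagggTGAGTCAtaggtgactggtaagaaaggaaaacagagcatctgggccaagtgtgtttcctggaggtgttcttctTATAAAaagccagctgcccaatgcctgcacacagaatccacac

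In this window Sprr1a held 2 AP-1 motifs, 146 to 140 and 116 to 110 bases before the start, and a TATA motif 43 to 38 bases before it. Anxa2 held 1 AP-1 motif, 95 to 89 bases before the start, and a TATA motif 17 to 12 bases before it. The matched AP-1 letters were TGAGTCA in all 3 cases, and since TGANTCA is its own reverse complement each match counts for both strands. The Tnfrsf12a window held neither motif. None of the 3 windows held the CRE motif (TGACGTCA) on either strand. The same was true of the TEAD motif, spelled GGAATG, and of the NF-kB and CArG motifs, which were held by 12.6%, 7.25% and 1.47% of all RefSeq windows, against 1.55% for CRE. Of 32851 RefSeq upstream windows of this length, 6.75% held an AP-1 motif and 12.4% a TATA motif, and of the 4860 windows of genes tested 4.16% and 6.07% did. Counted by gene, 27 of 3816 genes tested with a window (0.71%) held both, as Anxa2 and Sprr1a do. Only this pair of motifs was counted together, because Anxa2 and Sprr1a hold it, so nothing is read from how rare it is. GC content was 58.8% for Tnfrsf12a, 62.4% for Anxa2 and 49.6% for Sprr1a. A match describes letters and does not show binding.

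**Figure D3:**
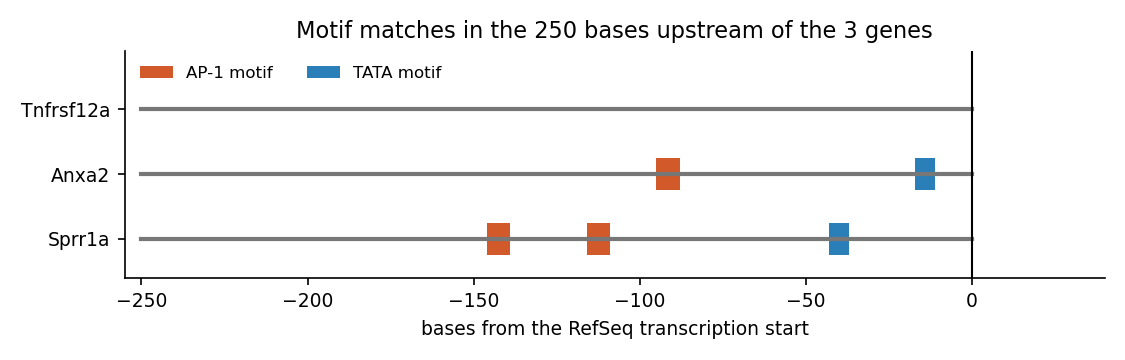
Matches to the AP-1 and TATA motifs in the 250 bases before the RefSeq start of each gene, by distance in bases. Sprr1a has 2 AP-1 matches and Anxa2 has 1, each with a TATA match nearer to the start, and Tnfrsf12a has none.

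Which genes followed the 3 genes most closely was measured as the root mean square difference between log2(TPM + 1) profiles over the 9 libraries, each centred on its FED mean. For Anxa2 and Sprr1a this difference was 0.16, smaller than that of either gene to any of the other 4662 genes. The next gene for both was Fosl1, which encodes the AP-1 subunit FRA-1, at 0.22 from Anxa2 and 0.20 from Sprr1a. Anxa2 and Sprr1a were chosen with these levels known, and Sprr1a and Fosl1 were compared only because of their level in FMD replicate 1. Nothing is therefore read from how near Anxa2, Sprr1a and Fosl1 lie to each other. Fosl1 (NCBI gene 14283) was listed at 0 in all FED and IF livers and at 11.36, 1.46 and 0.09 TPM in FMD replicates 1, 2 and 4. After these came Psat1 for both genes, then S100a11, Lgals3 and Ddit3 for Anxa2 and Cd63, Ddit3 and S100a11 for Sprr1a, with differences of 0.29 to 0.44. Psat1 too was compared only because of its level in FMD replicate 1, so nothing is read from its place. S100a11, a calcium-binding partner of annexins, was at 19.9 ± 5.09 TPM in FED, 15.9 ± 0.90 TPM in IF and 182.51, 49.18 and 17.04 TPM in FMD replicates 1, 2 and 4. The galectin gene Lgals3 was at 30.82, 7.05 and 2.77 TPM and the lysosomal and exosomal membrane gene Cd63 at 114.17, 30.84 and 10 TPM in the same libraries. After scaling, Ddit3 and S100a11 were only the 12th and 18th nearest to Sprr1a, while Fosl1 remained the nearest to both Anxa2 and Sprr1a. These profiles are dominated by FMD replicate 1, and over the other 8 libraries the order changed. Fosl1 was then 1st for Sprr1a at 0.042 and 3rd for Anxa2 at 0.16, behind Oit3 and Lgals3. Both Sprr1a and Fosl1 were low or at 0 in these libraries, which by itself keeps their difference small. That 1st rank is therefore not read as a likeness. Psat1 fell to 221st for Anxa2 and 153rd for Sprr1a, Ddit3 to 1363rd and 1306th, S100a11 to 10th and 86th, and Cd63 to 254th for Sprr1a. Anxa2 and Sprr1a still differed by 0.16, but other genes were then nearer to each of them.

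The profile of Tnfrsf12a was nearest to other genes. It lay 0.84 from Anxa2 and 0.74 from Sprr1a, and nearest to Ifrd1 at 0.22, Srxn1 at 0.31, Trib3 at 0.38, Hilpda at 0.39 and Cdc42ep5 at 0.44. The same 5 genes were its nearest after scaling. Without FMD replicate 1, Ifrd1 was again 1st at 0.093 and Srxn1 was 5th, but Hilpda was 11th, Trib3 19th and Cdc42ep5 39th. Ifrd1, a transcriptional coregulator known from muscle and intestinal regeneration, was at 6.45 ± 0.81 TPM in FED and 10.96 ± 0.46 TPM in IF livers (SD, n = 3 each) and at 102.79, 32.08 and 20.90 TPM in FMD replicates 1, 2 and 4. Srxn1, which encodes the antioxidant enzyme sulfiredoxin, was at 16.5 ± 2.13 TPM in FED and 31.1 ± 6.86 TPM in IF livers (SD, n = 3 each) and at 251.27, 64.67 and 47.69 TPM in the FMD livers. Hilpda, a lipid droplet protein that inhibits lipolysis, was at 2.21 ± 0.44, 3.98 ± 0.29 and 20.7 ± 17.1 TPM in FED, IF and FMD livers (SD, n = 3 each). As with Tnfrsf12a, the IF livers lay between the FED and FMD livers for Ifrd1, Srxn1 and Hilpda, which follows from their choice by likeness to its profile. AP-1 motifs were found upstream of 4 of 10 genes with a window among those nearest to the 3 genes (Srxn1, Hilpda, S100a11 and Ddit3), and upstream of 5.03% of genes tested counted in the same way. The motif was chosen with earlier results known, and which genes are nearest depends on FMD replicate 1. The 2 shares are therefore a description, and a difference between them was not tested.

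**Figure D4:**
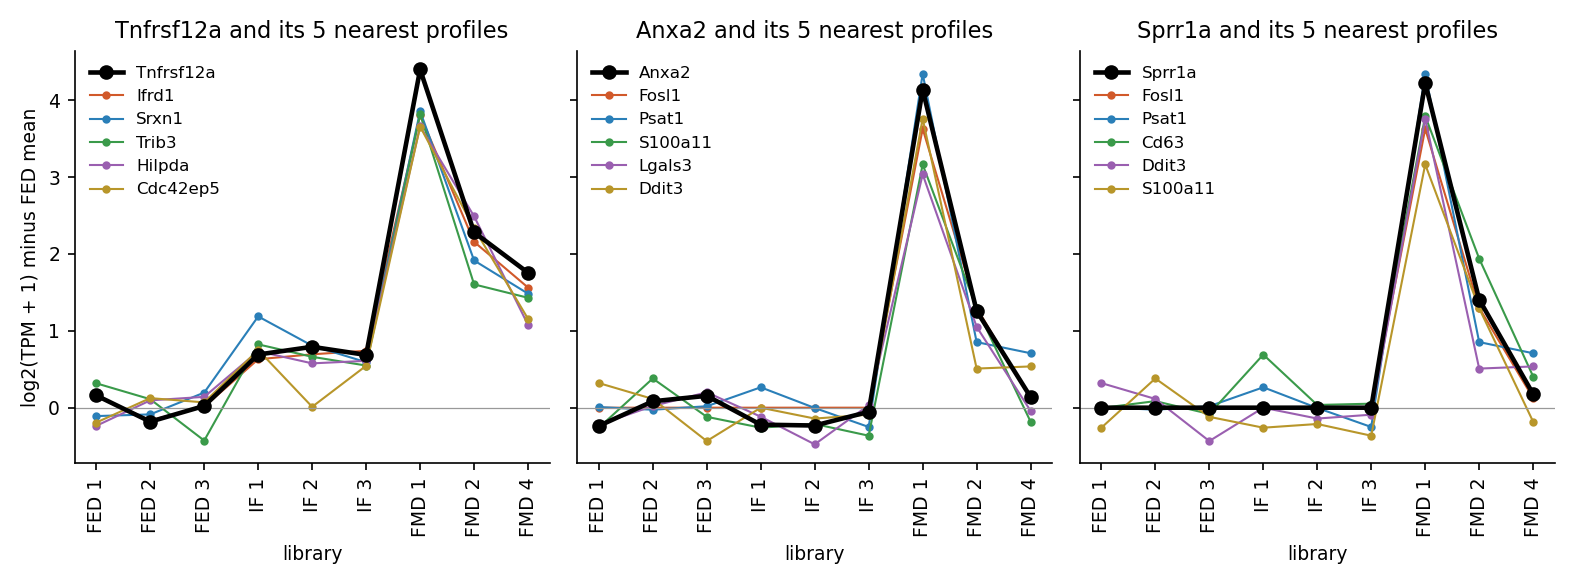
Profiles over the 9 libraries of each of the 3 genes (black) and of the 5 genes nearest to it (coloured), on log2(TPM + 1) minus the FED mean. Lines only join the points of one gene. Tnfrsf12a and its nearest genes lie above 0 in IF livers and higher in FMD livers, whereas Anxa2, Sprr1a and most of their nearest genes stay near 0 in IF livers and peak in FMD replicate 1.

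Genes of the pathways and families around the 3 genes were tested with limma over all 4665 genes, and a gene counted as called at an adjusted p under 0.05 and a change of more than 1.5-fold. Of 222 genes in 7 lists, 83 were in the table and 66 were tested. Between FMD and FED 30 of the 66 (45.5%) were called higher and 1 lower, against 35.5% and 1.61% of all genes tested (37.1% in either direction). The 30 include Fosl1, which passed the filter only through FMD replicate 1, so that its direction was fixed in advance. Scaling left 11 (16.7%) higher and 4 lower, against 5.46% and 5.76% of all genes. Between IF and FED 6 were called higher and 3 lower, against 10.3% and 1.59% of all genes (11.9% in either direction). Here scaling gave 4 in each direction, against 3.72% and 3.48%. Between FMD and IF 11 (16.7%) were called higher and 0 lower, against 4.67% and 0.472% of all genes (5.14% in either direction). Scaling gave 7 and 0, against 1.07% and 1.1%. The FMD vs IF count of 11 became 28 without FMD replicate 4, 3 without any 1 IF library, and 6 and 7 without FED replicates 2 and 3. The IF vs FED count of 9 fell to 4 or 5 without any 1 FED or IF library, and was 11 without FMD replicate 1 or FMD replicate 4. FMD replicate 1 was the highest FMD library for 55 of the 66 genes (83.3%), against 71.7% of all genes tested.

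Around the Tnfrsf12a receptor, the ligand moved in IF. Tnfsf12, which encodes TWEAK (NCBI gene 21944), was at 6.65 ± 0.94 TPM in FED, 3.36 ± 0.68 TPM in IF and 5.99 ± 2.6 TPM in the FMD group (SD, n = 3 each). It fell by 0.82 on the log2 scale in IF vs FED (standard error 0.23, adjusted p = 0.0253 from limma) and kept this call after scaling. The FMD vs FED change was -0.18 (adjusted p = 0.474), which scaling moved to -0.67 and called (adjusted p = 0.0220), and the FMD vs IF change was 0.63 (adjusted p = 0.0903). The IF livers thus had less Tnfsf12 than FED livers and more Tnfrsf12a. The IF call on Tnfsf12 was lost when any 1 FED library or IF replicate 2 or 3 was left out. The fit used 1 spread per gene over all 9 libraries, FMD ones included. Without FMD replicate 1 the call was kept (adjusted p = 0.00172). Downstream, Ikbkg, the regulatory subunit of the kinase that frees NF-kB, rose by 0.79 in FMD vs FED (adjusted p = 4.8e-04) and by 0.59 in FMD vs IF (adjusted p = 0.0219), but neither call was kept after scaling (adjusted p = 0.0930 and 0.0990), and the FMD vs IF one was lost without any 1 IF library or FMD replicate 1. No other of the 11 genes tested in this list was called on the main values, and their median log2 fold change in FMD vs FED was 0.41, below the 0.48 of all genes. Among 3 other receptors of the TNF superfamily tested, only the lymphotoxin receptor Ltbr was called. It rose by 0.70 from FED to IF (adjusted p = 0.00521) and by 0.66 from FED to FMD (adjusted p = 0.00240). Neither call was kept after scaling, and the second was lost without FMD replicate 1. The death receptor Fas was at 9.88 ± 1.26, 14.1 ± 1.47 and 11.7 ± 1.53 TPM in FED, IF and FMD mice (SD, n = 3 a group), and the decoy receptor Tnfrsf11b at 1.19 ± 0.07, 1.27 ± 0.60 and 1.39 ± 0.84 TPM.

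In the annexin family, 5 other members were tested and 3 were called higher in FMD vs FED, Anxa3, Anxa5 and Anxa6, where 35.5% of all genes were. With scaling 0 of the 5 were called higher, where 5.46% of all genes were. No annexin was called in IF vs FED or FMD vs IF. Anxa5, which binds exposed phosphatidylserine, was at 60.9 ± 6.88 TPM in FED and 68.8 ± 5.45 TPM in IF livers (SD, n = 3 each) and 338.92, 150.32 and 59.77 TPM in FMD replicates 1, 2 and 4. It rose by 1.24 on the log2 scale in FMD vs FED (standard error 0.46, adjusted p = 0.0325). This call and that of Anxa3 were lost without any 1 FED library or without FMD replicate 1 or 2, and that of Anxa6 without FED replicate 2 or FMD replicate 1 or 2. As for Anxa2, FMD replicate 4 lay inside the range of FED. Anxa6 was at 61.0 ± 2.22, 75.0 ± 7.98 and 94.2 ± 11.5 TPM, Anxa4 at 27.1 ± 1.66, 28.8 ± 2.05 and 42.1 ± 15.8 TPM, Anxa3 at 2.21 ± 0.12, 1.86 ± 0.28 and 4.21 ± 1.75 TPM and Anxa1 at 2.58 ± 0.56, 3.03 ± 0.81 and 4.03 ± 2.34 TPM in FED, IF and FMD livers (SD, n = 3 each). Anxa8 was at 0.31 TPM or less in every library and was not tested. The transcript of the S100A10 subunit that pairs with annexin A2 was far more abundant than that of Anxa2 in every liver. These are mRNA levels and do not give the amounts of the proteins. S100a10 (NCBI gene 20194) was at 213.54, 184.81 and 195.92 TPM in FED, 299.59, 307.06 and 237.31 TPM in IF and 950.13, 484.57 and 222.07 TPM in FMD livers. FMD exceeded FED by 1.24 on the log2 scale (standard error 0.39, adjusted p = 0.0180), a call that was lost without FED replicate 2 and with scaling (adjusted p = 0.167). Cltc, the clathrin heavy chain, rose by 0.74 (adjusted p = 0.00938), a call lost without FMD replicate 1 and with scaling, where the change was 0.20 (adjusted p = 0.326). For S100a11 the FMD vs FED change was 1.42 (adjusted p = 0.0593).

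Of 32 other SPRR and cornified envelope genes, 5 were in the table and 2 were tested. The SPRR family was represented by 1 other gene, Sprr2e, which was listed at 0 in all 9 livers. The envelope protein gene Evpl was at 0.01 to 0.07 TPM in all 9 livers and was not tested. Both tested genes were called higher in FMD vs FED, where 35.5% of all genes were. The protease inhibitor Cstb rose by 1.12 in FMD vs FED (standard error 0.45, adjusted p = 0.0458) and the junction protein plakoglobin, Jup, by 0.69 (standard error 0.12, adjusted p = 0.00128). Neither was called after scaling. Cstb was at 518.47, 121.79 and 114.38 TPM in FMD replicates 1, 2 and 4 against 88.9 ± 7.53 TPM in FED mice (SD, n = 3). The Cstb call was lost without FMD replicate 1 or any 1 of the FED or IF libraries, and with scaling and without FMD replicate 1 the change was -0.022 (adjusted p = 0.894).

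The list of injury and regeneration genes had 26 genes tested of 67. Between FMD and FED 13 rose (50%, against 35.5% of all genes) and 1 fell. With scaling these were 8 (30.8%) and 3, against 5.46% and 5.76% of all genes. The 13 were Cdkn1a, Cebpb, Fosl1, Fosl2, Gadd45b, Hmox1, Ier2, Ier3, Klf6, Myc, Socs3, Tubb6 and Vim. Of these, Fosl1 passed the filter only through FMD replicate 1, so its direction was fixed in advance. The median log2 fold change was 0.85, against 0.48 over all genes. Between FMD and IF 8 rose and 0 fell, against 4.67% and 0.472% of all genes, with a median of 0.80 against 0.24. With scaling 5 rose and 0 fell, against 1.07% and 1.1% of all genes. The 8 calls on the main values became 3 without any 1 IF library or with separate fits for each pair of groups, 4 or 5 without any 1 FED library, and 14 without FMD replicate 4. Between IF and FED 4 rose and 2 fell, against 10.3% and 1.59% of all genes, with a median of 0.13 against 0.24. With scaling 3 rose and 3 fell, against 3.72% and 3.48% of all genes. The 6 calls on the main values became 3 without any 1 FED or IF library. The stress sensor Gadd45b rose by 3.63 from FED to FMD (adjusted p = 3.1e-06) and by 1.95 from FED to IF (adjusted p = 3.2e-04), with means of 0.92 ± 0.19 TPM in FED, 6.50 ± 1.49 TPM in IF and 23.4 ± 7.30 TPM in FMD livers (SD, n = 3 each). Cebpb, a transcription factor of liver regeneration, was at 178.94, 211.92 and 212.93 TPM in FMD livers against 67.1 ± 8.98 TPM in FED and 90.9 ± 4.59 TPM in IF livers (SD, n = 3 each). It rose by 1.57 in FMD vs FED (adjusted p = 2.1e-05) and by 1.13 in FMD vs IF (adjusted p = 0.00195), and for this gene FMD replicate 1 was the lowest FMD library. Haem oxygenase 1, Hmox1, rose by 1.04 from FED to FMD (adjusted p = 7.3e-04), which scaling took under 1.5-fold, and was 1.49 higher in FMD than in IF (adjusted p = 0.00195). Egfr, the epidermal growth factor receptor, fell by 1.49 from FED to IF (adjusted p = 3.2e-04). From FED to FMD it fell by 1.62 (adjusted p = 6.2e-05). Its level went from 179 ± 30.9 TPM to 62.5 ± 2.15 and 57.7 ± 10.4 TPM (SD, n = 3 each). The feedback inhibitor of IL-6 signalling Socs3 rose by 1.06 from FED to IF (adjusted p = 0.00600) and by 1.31 from FED to FMD (adjusted p = 8.0e-04). Cyclin D1, Ccnd1, fell by 1.42 in IF vs FED (adjusted p = 0.0282). This call was lost without any 1 FED or IF library and kept without FMD replicate 1 (adjusted p = 1.5e-04). Ccnd1 was at 14.85, 3.44 and 3.38 TPM in FMD replicates 1, 2 and 4 against 6.29 ± 0.62 TPM in FED mice (SD, n = 3).

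Of the AP-1 genes in that list, Fosl2 (FRA-2) rose by 0.95 in FMD vs FED (standard error 0.17, adjusted p = 0.00124) and by 0.83 in FMD vs IF (adjusted p = 0.0240, lost without any 1 IF library), at 4.79, 4.37 and 3.04 TPM in FMD replicates 1, 2 and 4 against 1.61 ± 0.39 TPM in FED and 1.83 ± 0.28 TPM in IF mice (SD, n = 3 each). Scaling took the FMD vs FED change of Fosl2 under 1.5-fold. Fosl1 was called in FMD vs FED (adjusted p = 0.0378), and this was lost with scaling (adjusted p = 0.0929), without any 1 FED or IF library and without FMD replicate 2, and like Sprr1a it was tested only because of its level in FMD replicate 1. Junb, chosen after its values were seen, was at 38.47, 21.59 and 22.29 TPM in FED and 40.79, 53.81 and 29.84 TPM in FMD livers, a change of 0.59 on the log2 scale (adjusted p = 0.141). Jun, Fos and Atf3 were not analysed here. In the list of YAP/TEAD and SRF/MRTF genes, which respond to tension and the actin cytoskeleton, 8 of 14 rose in FMD vs FED (57.1%, against 35.5% of all genes) and 0 fell. This count was 3 with scaling (21.4%, against 5.46% of all genes). It was 5 without FED replicate 1, FMD replicate 1 or FMD replicate 2, and 1 with scaling and without FMD replicate 1. The tropomyosin gene Tpm4 rose by 1.37 in FMD vs FED (standard error 0.29, adjusted p = 0.00291) and by 1.60 in FMD vs IF (adjusted p = 0.0193), at 48.60, 25.82 and 16.51 TPM in FMD replicates 1, 2 and 4 against 10.1 ± 0.71 TPM in FED and 8.46 ± 0.41 TPM in IF mice (SD, n = 3 each). Both calls were kept with scaling, and the FMD vs IF one was lost without any 1 IF library. The calponin gene Cnn2 rose by 0.87 in FMD vs IF (adjusted p = 0.0282), a call lost without any 1 IF library or FED replicate 2. Yap1 itself rose by 0.67 in FMD vs FED (adjusted p = 0.00339) and the Hippo regulator Nf2 by 0.62 (adjusted p = 0.00247), and neither call was kept with scaling, where both changes were 0.13. The Yap1 call was also lost without FMD replicate 1 and the Nf2 call without FED replicate 1 or FMD replicate 2. The ectonucleotidase Nt5e rose by 1.36 from FED to FMD (adjusted p = 0.00312). It rose by 0.997 from FED to IF (adjusted p = 0.0296). That call was lost without any 1 FED or IF library and kept without FMD replicate 1 (adjusted p = 0.00131).

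**Figure D5:**
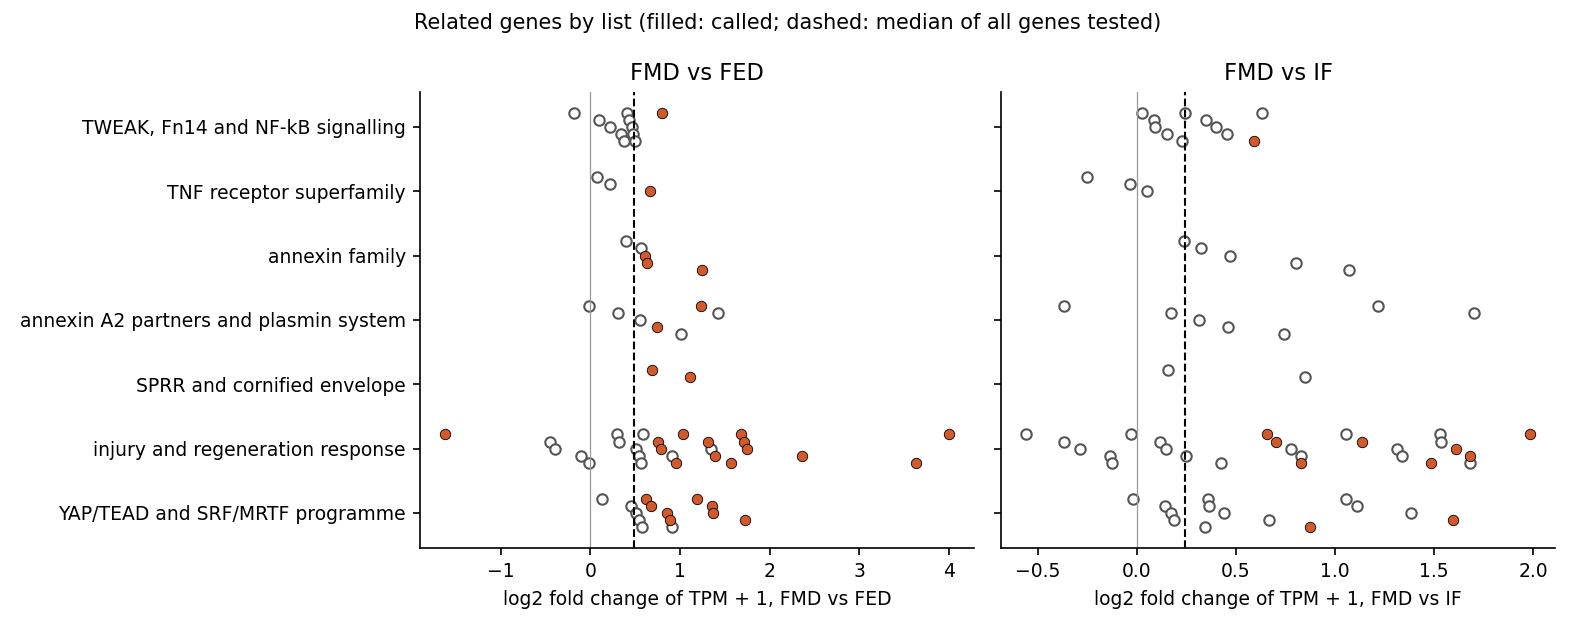
Log2 fold change on TPM + 1 of each gene tested in the 7 lists around Tnfrsf12a, Anxa2 and Sprr1a, for FMD vs FED (left) and FMD vs IF (right). Each point is a gene, filled points were called, and the dashed line is the median of all genes tested, at 0.48 and 0.24. In FMD vs IF, 8 of the 11 called genes are in the injury and regeneration list, which holds 26 of the 66 genes tested. These 8 calls became 3 without any 1 IF library.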

How the data were processed

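Liver RNA-seq values of 9 mice were analysed, 3 per group, grouped by their labels. The authors deposited TPM, from strand-specific oligo-dT libraries sequenced on DNBSEQ. The submitters' processing notes name mm39 and DESeq2. The aligner and annotation are not given in the sources used here. The table lists 5608 genes with 2 decimals and holds 26.3% to 43.0% of each library's total TPM. TPM keeps no read depth, so depth is unknown and counting intervals are not given.

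The 4665 genes averaging 1 TPM or more were tested on log2(TPM + 1), in 1 fit of all libraries with limma 3.58.1 in R 4.3.3 (moderated test with a trend, Benjamini-Hochberg adjustment over all genes). Genes were called at an adjusted p under 0.05 and over 1.5-fold. The fitting was tested on simulated data with the same spread in every group. The wider spread of the FMD libraries was not simulated. The 3 genes, the lists and the motifs were chosen with earlier results of these data known. Named from each list were up to 4 called genes per comparison with the smallest adjusted p, fixed partners and family members, and the 5 nearest profiles per gene, beside members of lists with few genes. Alternatives covered the pseudocount, the filter, scaling, separate fits for each pair of groups, no trend, a block for replicate number, the fold limit and each library left out. Scaling with FMD replicate 1 left out, and profiles and ranks without that library, were added after seeing the data. Upstream sequences came from RefSeq (GRCm38.p6) and were matched by NCBI gene identifier, for all 3 genes. Figures were made with python 3.11.15, pandas 2.3.3 and matplotlib 3.10.9.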

Additional observations from a re-analysis of the deposited data

How the results depend on the processing

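Over all genes the count of calls in IF vs FED was 553, in FMD vs FED 1733 and in FMD vs IF 240. Scaling gave 335, 522 and 101. With no limit on the fold they were 1112 in IF and 3135 in FMD against FED. With scaling and without FMD replicate 1 they were 514 in FMD against FED and 84 against IF. With 1 fit per pair FMD vs IF gave 24. Leaving out each library in turn gave 415 to 609, 1158 to 2174 and 18 to 820, the last without IF replicate 2 and without FMD replicate 4. For the related genes, with 9 calls in IF vs FED, 31 in FMD vs FED and 11 in FMD vs IF, scaling gave 15 in FMD vs FED and 7 in FMD vs IF, and with FMD replicate 1 left out as well 13 and 5. With no limit on the fold IF vs FED gave 14, and 1 fit per pair gave 3 in FMD vs IF. Leaving out each library gave 4 to 11 in IF vs FED, 22 to 41 in FMD vs FED and 3 to 28 in FMD vs IF. In IF vs FED it was 4 or 5 without any 1 of the FED or IF libraries, and in FMD vs IF 6 and 7 without FED replicates 2 and 3.

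With a replicate block FMD vs IF gave 772 calls over all genes and 25 among the related genes. Same-numbered libraries of different groups correlated across genes at 0.003 to 0.18 in their deviations from the group means, over 0.1 in 4 of 7 pairs. Libraries with different numbers ranged from -0.20 to 0.21, and only among these were there negative values. The labels name no pairing of the mice, so the main fit had no block. Whether the numbers carry a shared structure was not tested. The block moved neither other comparison's count by over 1.5 times, over all genes or among the related genes.

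For Tnfrsf12a the difference was 0.63 to 0.80 in IF against FED, 2.02 to 3.34 in FMD against FED and 1.29 to 2.62 in FMD against IF with each library left out, and 1.61 and 1.14 for the FMD comparisons with scaling and without FMD replicate 1. For Anxa2 it was -0.29 to -0.09, 0.70 to 2.70 and 0.87 to 2.87, and 0.30 and 0.72. The mean level of Sprr1a in FMD was 1.93 on log2(TPM + 1) and 0.79 to 2.81 with each FMD library left out. Each lowest FMD value was that without FMD replicate 1. Cstb in FMD vs FED was at -0.022 after scaling without FMD replicate 1. The cause of these changes was not tested. Of the 51 calls of single related genes, 26 were kept after scaling and 37 without FMD replicate 1. Sequencing depth is unknown, so counting error could not be set apart from the spread between mice.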
